A study of Mus musculus with 25 samples.

Results

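The interferon response genes described here are 41 mouse genes taken by symbol from a count table of 24061 genes, and all 41 were found in it. The list was drawn up by name from knowledge of the pathway, with earlier results of these data known. It holds 4 regulators of transcription, 4 sensors of nucleic acids, 25 effectors induced chiefly by type I interferon and 8 GTPases of the guanylate-binding and immunity-related families, which are known as targets of interferon-gamma. The regulators, sensors and effectors are called the type I side below, a division of convenience, since many of its genes also answer to interferon-gamma.

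Interferons are secreted proteins that bind receptors on nearly every cell and act through JAK kinases and STAT factors. Type I interferons activate a complex that holds Stat2 and Irf9 and binds the interferon-stimulated response element, while interferon-gamma acts through the gamma-activated site and induces Irf1. In skin, interferon targets are known as part of the early reply to injury, infection and DNA release, and keratinocytes carry the receptors for type I, type II and type III interferons.

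RNA was counted in 21 libraries of cells sorted from the skin or tumours of female B6 mice, and open chromatin was mapped in 4 pooled ATAC-seq samples from female mice of mixed CD1/B6 background. In the CL set, hair follicle stem cells (HFSC; lineage negative, integrin alpha 6 high, CD34+ Sca1-) and epidermal stem cells (EpdSC; CD34- Sca1+) came from unwounded skin at postnatal day 60. Cells of wounds at day 60 came from Sox9CreER;R26-YFP mice and were sorted as YFP+ (the HFSC lineage) or YFP- (EpdSC), with 2 libraries in each of the 4 groups. The labels do not say whether YFP+ and YFP- libraries of 1 letter came from the same wounds, and they were treated as independent. The BK set had HFSC and EpdSC in 2 libraries each, plus a lone library of wounded EpdSC sorted on lineage and integrin alpha 6 without the YFP mark. In the DS set, GFP+ cells of grafted tumours labelled HRas, HRas TbrKO or TbrKO were sorted into integrin alpha 6 high and low fractions, 1 library each, and 1 library each of HFSC and EpdSC carried the title Tbr. The labels give no age for the tumour samples. Gate and wound changed together in CL, since unwounded cells were sorted by CD34 and Sca1 and wounded cells by a mark that depends on where Sox9CreER was active. The ATAC samples were HFSC and EpdSC at day 50, wound cells (integrin alpha 6 positive, Sca1 positive) and GFP+ tumour cells from HRas-induced squamous cell carcinoma.

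The libraries held 14216472 to 36425082 counts. Levels are given as CPM, counts scaled to library size, after TMM scaling over all 21 libraries, and they serve to compare libraries for 1 gene, not genes with each other, since they are not divided by gene length. The basal keratin genes Krt5 (lowest 10490 CPM) and Krt14 (lowest 4373 CPM) were high in every library. The labels do not spell out Tbr or say which part of a gene was deleted. Tgfbr2, a TGF-beta receptor gene, stood at 198 and 224 CPM in HRas, 213 and 228 in HRas TbrKO, 455 and 187 in TbrKO, and 58.6 and 139 in the Tbr stem cells. A count over a whole gene does not check a deletion of part of it, so tumours are called by their labels. Whether libraries of 1 group stem from different mice is not stated, so a p-value here reflects the spread among the samples, which may be technical. Nor is it stated whether the integrin high and low fractions of a tumour genotype came from different tumours. The p-values for tumour genotypes may therefore not reflect the spread between tumours.

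Promoter sequence was matched by symbol for 31 of the 41 members (RefSeq, GRCm38.p6, from 250 bases before to 50 after the annotated start). Oas2, Mx1, Mx2, Usp18, Dhx58, Zbp1, Iigp1, Parp9, Parp14 and Rtp4 were not matched. The core of the interferon-stimulated response element was searched on both strands as GAAANNGAAA and was found in 19 of the 31 members (61.3%), beside 3.99% of all 27025 genes with a promoter in the table. It was found in 7 of 7 matched GTPases, in 9 of 18 effectors, in 2 of 2 sensors (Ddx58 and Ifih1) and in 1 of 4 regulators (Stat2). The windows below show it in 3 effectors, antiviral proteins of which Isg15 is a ubiquitin-like modifier. Capitals mark the first match, written as it reads on the strand of the gene, so the reverse complement appears where the match lies on the other strand.
Isg15, chr4:156200867-156200916, minus strand: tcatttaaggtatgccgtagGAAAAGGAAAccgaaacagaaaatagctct
Ifit3, chr19:34583353-34583402, plus strand: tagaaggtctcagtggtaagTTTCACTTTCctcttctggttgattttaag
Rsad2, chr12:26456543-26456592, minus strand: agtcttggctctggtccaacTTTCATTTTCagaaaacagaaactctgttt
Isg15 held 3 overlapping matches that begin 78, 72 and 66 bases before its start. The matches of Ifit3 and Rsad2 shown begin 156 and 120 bases before theirs.

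The next windows show the same core in all 7 matched GTPases, proteins that gather on pathogen vacuoles. They lie between 165 (Gbp5) and 30 (Irgm1) bases before the start.
Gbp2, chr3:142620584-142620633, plus strand: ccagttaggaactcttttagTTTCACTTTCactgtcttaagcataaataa
Gbp3, chr3:142559979-142560028, plus strand: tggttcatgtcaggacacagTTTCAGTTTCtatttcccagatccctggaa
Gbp5, chr3:142496749-142496798, plus strand: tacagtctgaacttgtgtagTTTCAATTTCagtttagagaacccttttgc
Gbp7, chr3:142530263-142530312, plus strand: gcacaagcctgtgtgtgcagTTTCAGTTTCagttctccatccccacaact
Igtp, chr11:58199502-58199551, plus strand: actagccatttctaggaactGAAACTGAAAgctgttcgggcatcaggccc
Irgm2, chr11:58214893-58214942, plus strand: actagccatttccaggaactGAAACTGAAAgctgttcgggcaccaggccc
Irgm1, chr11:48871421-48871470, minus strand: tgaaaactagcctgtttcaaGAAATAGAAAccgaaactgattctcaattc
The windows of Igtp and Irgm2 differed at 2 of 50 bases, and the 4 Gbp genes lie in 1 cluster on chromosome 3. Reads of such close relatives may be split by the authors' counting, so the values of single GTPases are less certain than those of the class, as is Oas1a beside Oas1g.

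The core of the gamma-activated site, TTCNNNGAA on both strands, was found in 11 of 31 members (35.5%), beside 9.55% of all genes, and in 4 of the 7 GTPases. Matches of both cores overlapped in 2 members, and 8 of 31 members (25.8%) held both, beside 0.614% of all genes. Irf1, the factor through which interferon-gamma drives a later wave of genes, had the gamma core and no match of the other core.
Irf1, chr11:53769904-53769952, plus strand: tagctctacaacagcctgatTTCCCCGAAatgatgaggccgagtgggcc
Here the capitals begin 90 bases before the start. A match is a description of letters and not a measured binding site.

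Irf7, the factor that amplifies the type I response, was highest in wounded EpdSC of CL, at 42.3 and 34.5 CPM. It stood at 7.29 and 7.20 CPM in EpdSC, 6.48 and 10.3 in HFSC. The wounded HFSC lineage had 10.02 and 9.82 CPM. The wounded EpdSC libraries were thus apart from the other 6 CL libraries, and the wounded HFSC lineage lay within the range of HFSC. BK HFSC had 4.37 and 6.39 CPM, BK EpdSC 15.1 and 13.2, and BK wounded EpdSC 5.70. Among tumours it stood at 12.7 (integrin high) and 15.8 (low) CPM in HRas, 19.9 and 35.1 in HRas TbrKO, and 21.4 and 25.8 in TbrKO, beside 3.74 in Tbr HFSC and 8.15 in Tbr EpdSC. All 4 libraries labelled TbrKO, with or without HRas, lay above both HRas libraries.

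Oas2, an enzyme that makes the messenger that switches on RNase L, was near the detection limit in unwounded CL cells, at 0.266 and 0.192 CPM in HFSC and 0.168 and 0.129 in EpdSC. It stood at 3.12 and 2.39 CPM in wounds for the HFSC lineage and at 7.02 and 6.02 for EpdSC. Both wounded groups lay above both unwounded groups without overlap. The order was another in BK, with HFSC at 0.0858 and 0.289 CPM, EpdSC at 3.16 and 1.81, and wounded EpdSC at 0.320. In tumours Oas2 stood at 1.54 (high) and 5.73 (low) CPM in HRas, 4.25 and 17.7 in HRas TbrKO, and 1.99 and 5.10 in TbrKO. Tbr HFSC and Tbr EpdSC held 0.125 and 0.723 CPM. Within each tumour genotype the integrin low library was the higher of the pair.

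Gbp2, a guanylate-binding GTPase, was not at its highest in wounds. It stood at 13.5 and 39.0 CPM in CL HFSC and 25.5 and 42.4 in EpdSC, while the wounded counterparts held 12.9 and 11.8 CPM (HFSC lineage) and 11.5 and 16.8 (EpdSC). BK HFSC had 10.1 and 8.99 CPM, BK EpdSC 36.5 and 17.1, and BK wounded EpdSC 39.5. No CL wound library exceeded 16.8 CPM. In tumours Gbp2 stood at 5.32 (high) and 12.2 (low) CPM in HRas, 46.8 and 84.8 in HRas TbrKO, and 179 and 110 in TbrKO, with 14.0 and 38.7 in Tbr HFSC and Tbr EpdSC. The HRas high library was the lowest of the 21 and the TbrKO high library the highest.

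Iigp1, an immunity-related GTPase, stood at 1.78 and 3.31 CPM in CL HFSC and 1.49 and 1.21 in its wounded lineage, and at 2.81 and 8.80 in CL EpdSC and 0.448 and 1.44 when wounded. BK HFSC had 0.515 and 0.723 CPM, BK EpdSC 2.68 and 2.36, and BK wounded EpdSC 4.21. In tumours it stood at 3.11 (high) and 7.31 (low) CPM in HRas, 28.0 and 39.0 in HRas TbrKO, and 20.3 and 11.9 in TbrKO, beside 0.623 in Tbr HFSC and 5.38 in Tbr EpdSC. The 4 libraries labelled TbrKO were again all above both HRas libraries, here with HRas TbrKO at the top.

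**Figure D1:**
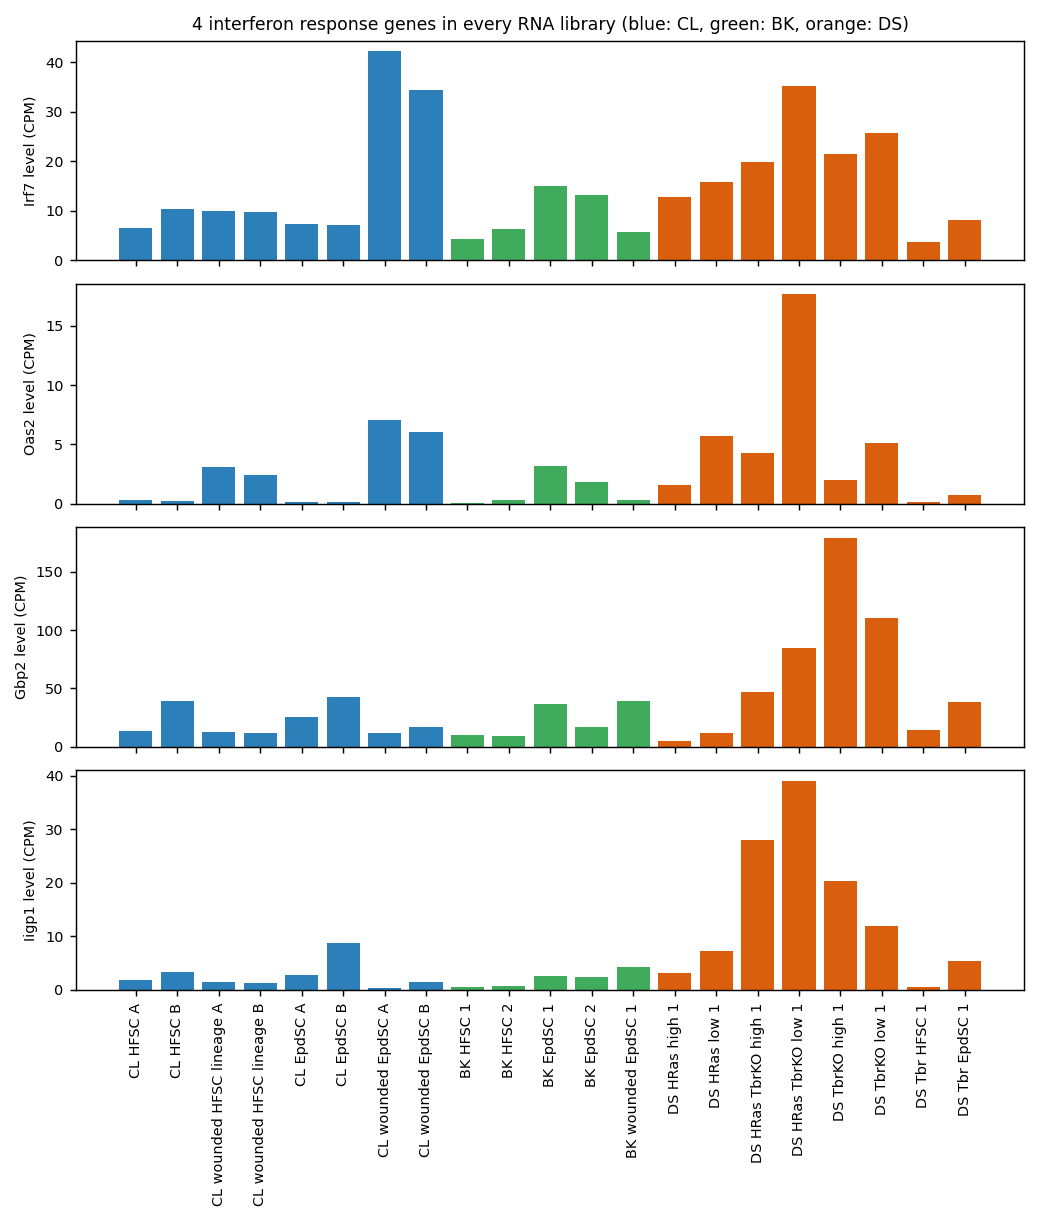
Levels of Irf7, Oas2, Gbp2 and Iigp1 (bars, CPM after TMM scaling, vertical axes from 0) in each of the 21 RNA libraries. Irf7 and Oas2 are higher in wounded EpdSC of CL (42.3 and 34.5, 7.02 and 6.02 CPM) than in EpdSC, while Gbp2 and Iigp1 are highest in tumours labelled TbrKO or HRas TbrKO.

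Over all 41 members, 25 had their highest library among the 6 tumour libraries: 12 in the HRas TbrKO low library, 10 in TbrKO high and 3 in TbrKO low. A further 6 were highest in wounded EpdSC of CL and 3 in the wounded HFSC lineage, and none was highest in HRas. The labels do not say whether the sets were handled alike, so this order across sets is a description. The summed level of the 8 GTPases ran from 41.4 to 109 CPM in the 15 libraries outside tumours and stood at 28.7 and 60.8 CPM in HRas, 138 and 256 in HRas TbrKO, and 325 and 215 in TbrKO. The summed level of the 25 effectors ran from 336 CPM in Tbr HFSC to 1153 in TbrKO high. Ifitm3 alone gave 85.2 and 622 CPM of these, so the sums do not show how widely single effectors spread.

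**Figure D2:**
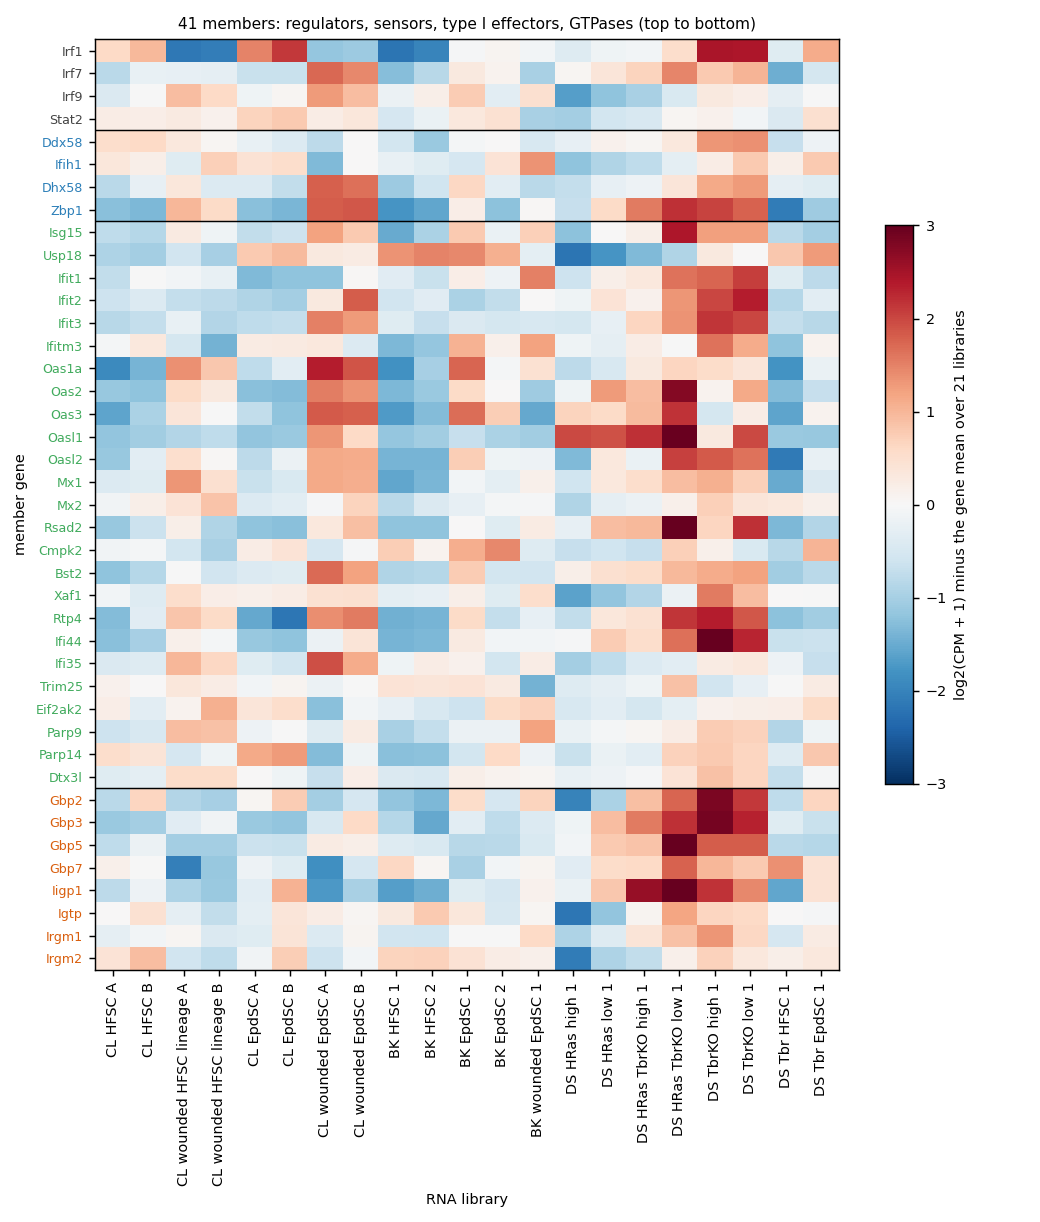
Each row is 1 of the 41 members and each column 1 of the 21 RNA libraries. Colour gives log2(CPM + 1) minus the mean of the gene over all libraries, with red above and blue below it, and lines part regulators, sensors, type I effectors and GTPases. The HRas TbrKO low library, the highest for 12 members, and both TbrKO libraries carry most of the red. In wounded EpdSC 14 of 25 effectors rose against EpdSC and 2 fell.

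In the wounded HFSC lineage the members called higher were all on the type I side, at a share of all members near that of all genes. Of 41 members, 11 rose and 5 fell by edgeR's quasi-likelihood test with Benjamini-Hochberg adjustment over all genes, where 21.4% of all 14831 genes tested rose and 24.7% fell. All 11 that rose were on the type I side (11 of 33 rose, 2 fell, median log2 fold change 0.82), and 3 of 8 GTPases fell with none rising (median -1.01), beside a median of -0.10 over all genes. So the share of all members that rose, 11 of 41, was close to the share of all genes.

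The largest rises were of Oas1a and Oas2, which make the messenger of RNase L. Oas1a rose from 0.503 and 1.15 CPM in HFSC to 13.7 and 8.79 in the wounded lineage (log2 fold change 3.76, SE 0.47, adjusted p = 0.000654, edgeR). Oas2 rose by 3.53 on the log2 scale (SE 0.44, adjusted p = 0.000632, edgeR). Their relatives Oas1b (-0.36) and Oas1c (-0.43), listed apart from the members, were not called. Oas1g, from the same list, stood at 0.325 and 0.616 CPM in HFSC and at 4.13 and 3.34 in the wounded lineage. The remaining effectors that rose were Ifi44 (2.80), Oas3 (2.76), Mx1 (1.89), Parp9 (1.47), Ifi35 (1.23), Isg15 (1.04) and Dtx3l (0.90), in log2 fold change. Parp9 and Dtx3l are partners in one ubiquitin ligase and ADP-ribosylation complex, and Mx1 is a GTPase that traps viral particles. Ifitm3, a membrane protein that blocks virus entry, fell by 1.08 on the log2 scale. Of the effectors that were not called, log2 fold changes ran from -1.43 (Cmpk2) to 2.02 (Ifit3), beside Oasl1 with 16 counts in the wounded lineage and 3 in HFSC, a ratio of 5.77 (95% exact interval 1.65 to 30.9, counting error only).

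Among sensors, Zbp1, which detects Z-form nucleic acids, rose from 0.799 and 0.693 CPM to 7.56 and 5.35 (log2 fold change 3.09, SE 0.33). The other sensors were not called and ran from -0.39 (Ddx58, the RNA sensor RIG-I) to 0.69 (Dhx58). Among regulators Irf9, the DNA-binding part of the Stat complex, rose from 36.9 and 49.5 CPM to 96.0 and 76.8 (log2 fold change 0.99), and Irf1 fell from 158 and 204 CPM to 22.6 and 23.9 (log2 fold change -2.97, SE 0.28). Stat2 (-0.03) and Irf7 (0.23) were not called.

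The GTPases that fell were Gbp5, Gbp7 and Irgm2. Gbp5 had 30 counts in the HFSC libraries and 2 in the wounded lineage, a ratio of 13.9 with a 95% exact interval of 3.52 to 120 that covers counting error only. Gbp7 fell by 2.04 and Irgm2 by 1.54 on the log2 scale. Those not called ran from -1.10 (Gbp2) to 1.44 (Gbp3).

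Other measured values moved alongside. Immediate early genes, which respond within minutes to stress and tissue dissociation, fell in 11 of 12 cases, and their summed level went from 24942 and 42359 CPM in HFSC to 809 and 769 in the wounded lineage. Irf1 fell with them. The summed level of 15 leukocyte markers was 78.1 and 188 CPM in HFSC and 245 and 362 in the wounded lineage, with 4 rising (S100a9, Lyz2, Itgax and Itgam, genes of myeloid cells) and 5 falling (Cd207, Cd3g, Cd3e, Cd74 and H2-Aa, genes of Langerhans cells, T cells and antigen presentation). S100a9, which inflamed keratinocytes also express, went from 0.266 and 0.346 CPM to 173 and 298, and the other 14 markers summed to 77.8 and 188 CPM in HFSC and 71.7 and 64.0 in the wounded lineage. So the higher sum was that of S100a9. In bulk samples fewer cells of a type and less RNA per cell cannot be told apart, and the part of dissociation or leukocytes in these changes was not tested. With a library left out, the count of members called, 16, and the share of all genes called moved together. Both were lower without either library of HFSC, EpdSC or the wounded lineage. Both were higher without either library of wounded EpdSC. Each of these fits left a group without a replicate.

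In wounded EpdSC most of the type I side rose, while the GTPases were divided. Of 41 members 20 rose and 4 fell, where 30.2% of all genes rose and 28.2% fell. On the type I side 18 of 33 rose and 3 fell (median log2 fold change 1.71), while 2 of 8 GTPases rose and 1 fell (median -0.51), beside a median of -0.04 over all genes. With upper quartile scaling that last median became 0.13, a shift of the whole scale, and 21 members rose and 3 fell.

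Irf7 rose by 2.39 on the log2 scale (SE 0.28, adjusted p = 0.000371, edgeR), Irf9 from 45.7 and 52.2 CPM to 123 and 95.9 (1.15), and Irf1 fell from 291 and 458 CPM to 45.6 and 48.3 (log2 fold change -3.01). Stat2 was not called (-0.46, adjusted p = 0.0514, edgeR). Zbp1 rose from 0.796 and 0.643 CPM to 14.1 and 14.5, which is 4.28 on the log2 scale. Dhx58, a regulator of RNA sensing, rose by 2.74, while Ddx58 (-0.02) and Ifih1 (-1.02) were not called.

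Effectors with next to no reads in unwounded EpdSC were counted in the wound. Ifit2, which binds foreign RNA, had 2 counts in EpdSC and 173 in wounded EpdSC, a ratio of 79.3 (95% exact interval 21.6 to 660). Oasl1 had 1 and 152 counts, a ratio of 139 (24.6 to 5537). Such intervals cover counting error only, and both genes passed the test. Oas2 rose by 5.37 on the log2 scale (SE 0.50, adjusted p = 0.000131, edgeR). The other effectors that rose were Rtp4 (5.20), Ifit3 (5.15), Rsad2 (4.37), Oas3 (3.81), Ifi44 (3.14), Oas1a (3.01), Mx1 (2.38), Ifi35 (2.06), Bst2 (1.94), Isg15 (1.90) and Oasl2 (1.69). Parp14 fell by 1.86 and Usp18, the protease that removes Isg15 and damps the receptor, fell by 0.64. Uncalled effectors ran from -1.04 (Eif2ak2, the kinase PKR) to 1.71 (Ifit1).

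Among GTPases Gbp3 rose from 0.796 and 0.707 CPM to 1.79 and 4.93 (2.14), Gbp5 rose from 0.335 and 0.321 CPM to 1.49 and 1.35 (2.08, adjusted p = 0.0458, edgeR), and Iigp1 fell by 2.60. The others ran from -1.27 (Gbp2) to 0.06 (Igtp). The called GTPases thus went both ways in this wound group.

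Beside these values stand large differences in other cell types' markers. All 15 leukocyte markers rose, from a summed 58.1 and 44.4 CPM in EpdSC to 7815 and 6123 in wounded EpdSC, although the sort was lineage negative. The antigen presentation gene Cd74 stood at 3179 and 2352 CPM, and the pan-leukocyte gene Ptprc at 24.8 and 96.4. Of 11 fibroblast and endothelial markers tested 10 rose. Immediate early genes fell in 10 of 12 cases. Ifng, the gene of interferon-gamma, was at 0 in the other 6 CL libraries and at 0.548 and 1.48 CPM in wounded EpdSC. How much of the member RNA came from leukocytes in these libraries was not tested.

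The wound responses of the lineages were set against each other in 1 test of the difference, lineage minus EpdSC. Of 41 members 4 differed, where 15.8% of all genes did. Irf7 (-2.16, SE 0.39, adjusted p = 0.0105), Ifit2 (-7.13, SE 1.48) and Gbp5 (-5.80, SE 1.24) responded lower in the HFSC lineage and Parp9 higher (1.43, SE 0.35), all by edgeR. For Ifit2 and Gbp5 the size rests on groups with 2 counts. Oas2 (-1.84, adjusted p = 0.0942) and Gbp2 (0.17) were not called, and neither were 35 other members, so the 11 and 20 members that rose do not by themselves show unequal responses. The uncalled regulators ran from -0.16 (Irf9) to 0.44 (Stat2), the sensors from -2.05 (Dhx58) to 1.03 (Ifih1), the effectors from -4.47 (Oasl1) to 1.77 (Eif2ak2) and the GTPases from -1.10 (Gbp7) to 1.68 (Iigp1). With 1 library left out, which leaves 1 library in a group, the count of 4 and the share of all genes called moved together. Both were lower without either library of HFSC, EpdSC or the wounded lineage, and without wounded EpdSC A. Both were higher without wounded EpdSC B.

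Compared directly, the wounded HFSC lineage had 10 members lower and 1 higher than wounded EpdSC, where 12.4% of all genes were lower and 6.8% higher. Irf7 was lower by a log2 difference of -1.95 (SE 0.28, adjusted p = 0.0047, edgeR), and so were Dhx58 (-1.96), Bst2 (-1.82, the virus tether tetherin), Zbp1 (-1.15), Usp18 (-1.14), Isg15 (-1.02), Irf1 (-1.01), Oasl1 (-3.60), Ifit2 (-4.14) and Gbp5 (39.1-fold in counts, 95% exact interval 10.4 to 330). Parp9 was higher (0.94). Regulators not called were Irf9 (-0.35) and Stat2 (-0.10), and sensors not called were Ddx58 (0.54) and Ifih1 (0.80). Uncalled effectors ran from -3.68 (Ifit3, adjusted p = 0.0517, edgeR) to 1.26 (Eif2ak2) and uncalled GTPases from -0.73 (Gbp7) to 0.49 (Iigp1). Leukocyte markers were lower in 14 of 15 cases. With only the 4 wound libraries fitted, 7 members were called, all lower, where 7.64% of all genes were called. Leaving out 1 library left 1 library in a group. Fewest members were then called without wounded lineage B and most without wounded EpdSC B. The share of all genes called was smaller than in the main fit without wounded lineage B and larger without wounded EpdSC B.

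**Figure D3:**
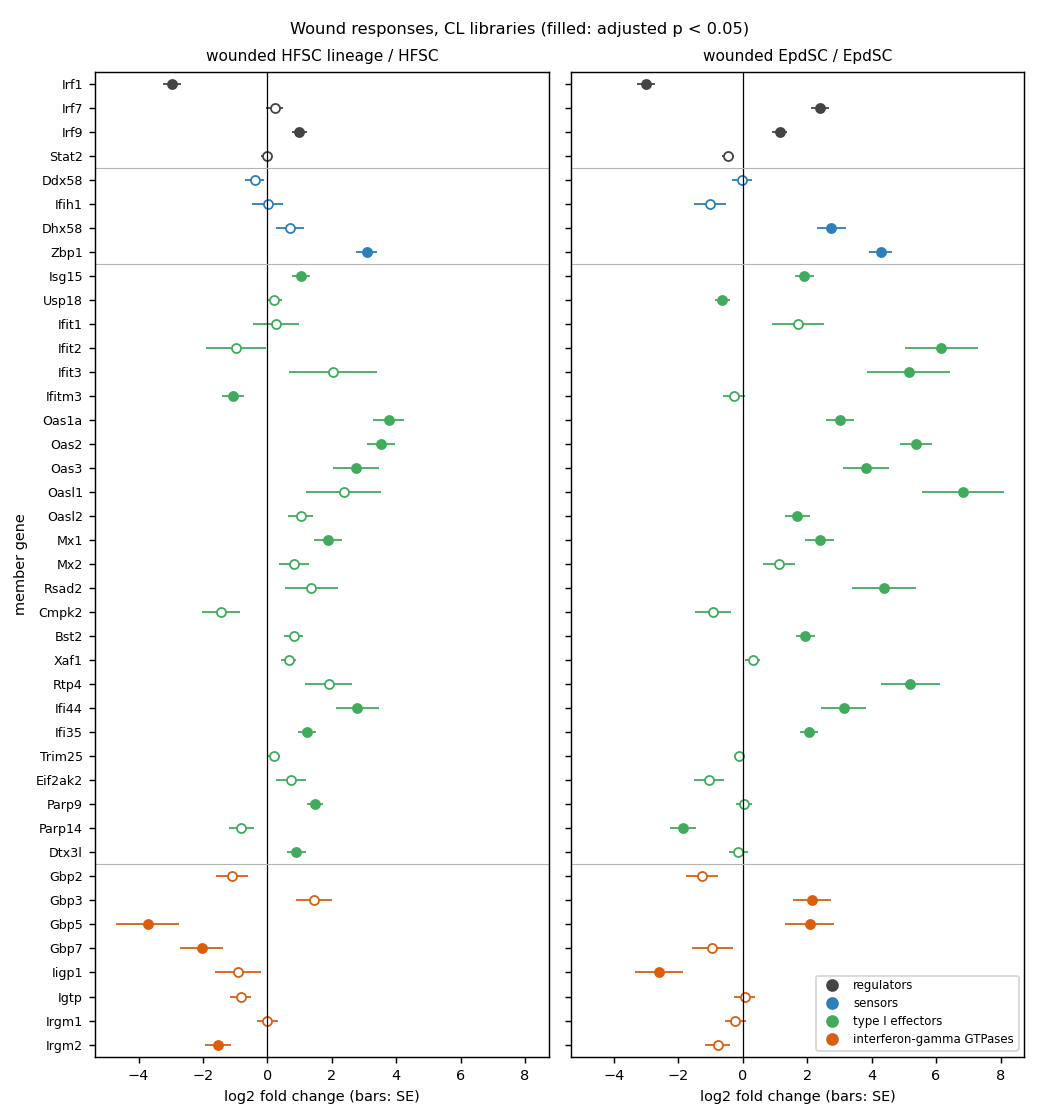
Log2 fold changes of the 41 members on wounding in the HFSC lineage (left) and EpdSC (right) of CL, with standard errors as bars, 2 libraries per group, and filled points for adjusted p below 0.05. Irf1 is low in both panels (-2.97 and -3.01), Oas1a, Oas2 and Oas3 are to the right in both, and Ifit2 and Gbp5 lie on opposite sides.

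Unwounded HFSC and EpdSC differed in few members in CL and more in BK. In CL 3 members were lower in HFSC and none higher, where 3.63% of all genes were lower: Irf1 (log2 difference -1.06), Usp18 (6.98 and 6.39 CPM against 25.0 and 28.0, -1.99) and Oas1a (-1.84). With upper quartile scaling 1 was higher and 1 lower. The uncalled members ran from -1.19 (Iigp1) to 2.43 (Rtp4), apart from Ifit2 and Oasl1, which had 2 counts and 1 count in EpdSC, with Stat2 (-0.54) and Irf7 (0.21) as the regulators at the ends and Ifih1 (-0.23) and Ddx58 (0.91) as the sensors. Among uncalled effectors Oas3 was lowest (-0.87), and Gbp5 was the highest GTPase (0.69). The count of 3 and the share of all genes called were both lower without either library of HFSC, EpdSC or the wounded lineage. Both were higher without wounded EpdSC A or wounded EpdSC B. Each of these fits left 1 library in a group.

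In BK 9 members were lower in HFSC than in EpdSC and none higher, where 6.47% of all genes were lower. They were Oas3 (0.0286 and 0.347 CPM in HFSC against 9.66 and 4.59, log2 difference -5.22), Ifi44 (-4.71), Mx1 (-4.01), Oas2 (-3.71), Rsad2 (-3.03), Irf1 (-2.16), Oasl2 (-2.04), Iigp1 (-2.03) and Ifitm3 (-1.95). The type I side had a median of -1.25 and the GTPases of -0.12, beside -0.03 over all genes. Regulators not called ran from -1.40 (Irf7) to -0.33 (Irf9), sensors from -2.71 (Zbp1) to -0.34 (Ifih1), effectors from -3.19 (Oas1a) to 1.81 (Ifit2) and GTPases from -1.497 (Gbp2) to 1.59 (Gbp5). Immediate early genes were lower in HFSC in 10 of 12 cases and leukocyte markers in 0 of 14, and the part of either was not tested. Leaving out a library of HFSC or EpdSC left 1 library in that group. Fewer members and a smaller share of all genes were called without HFSC 1 or HFSC 2. More members and a larger share of all genes were called without EpdSC 1 or EpdSC 2.

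In BK the single wounded EpdSC library had few member calls. Against BK EpdSC 1 member was lower, Trim25, a ubiquitin ligase of RIG-I (25.5 against 92.9 and 83.9 CPM, log2 difference -1.85, adjusted p = 0.047, edgeR), and none was higher, where 6.21% of all genes were lower. Oas2 and Irf7 lay below both EpdSC libraries in BK and above both in CL. Oas3 stood at 0.160 CPM, which was 3 counts, beside 9.66 and 4.59 in BK EpdSC, and was not called. Other uncalled members ran from -3.005 (Oas2) to 2.87 (Ifit2) among effectors, from -1.49 (Stat2) to 0.11 (Irf9) among regulators, from -1.52 (Dhx58) to 1.29 (Ifih1) among sensors and from -0.27 (Irgm2) to 1.47 (Gbp5) among GTPases. The summed leukocyte markers stood at 138 CPM in this library and at 130 and 57.6 in BK EpdSC. S100a9 made up 80.3 CPM of it, beside 4.23 and 2.55 in BK EpdSC, and the other 14 markers summed to 57.9 CPM, beside 126 and 55.0. None of the 14 leukocyte markers tested was called. Its gate carried no YFP mark, and a lone library is assumed to vary like the other groups. Without EpdSC 1 or EpdSC 2, which leaves 1 library in that group, more members and a larger share of all genes were called.

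In tumours labelled HRas TbrKO the members stood higher than in HRas, most of all the GTPases, but no gene passed the test. By edgeR 0 of 41 members and 0 of 15113 genes (0%) were called. At an unadjusted p under 0.05 there were 28 members and 1701 genes, and DESeq2 called 14 members, all higher, among 404 genes (2.67%). Log2 fold changes were positive for 40 of 41 members, with a median of 1.08 beside -0.01 over all genes. The 8 GTPases were all positive with a median of 2.01, and the type I side had a median of 0.94.

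Gbp2 had the largest value (2.94, SE 0.47, adjusted p = 0.197, edgeR). Ifit3 stood at 0.268 (high) and 0.539 (low) CPM in HRas and 1.86 and 3.68 in HRas TbrKO (2.76, adjusted p = 0.206, edgeR). Igtp stood at 1.94 and 4.82 CPM in HRas and 13.0 and 28.8 in HRas TbrKO (2.65, adjusted p = 0.177, edgeR), and Iigp1 had a log2 fold change of 2.73. The lowest GTPase was Gbp7 (1.19). Sensors ran from 0.27 (Ddx58) to 2.22 (Zbp1), regulators from 0.50 (Irf1) to 0.91 (Irf7), and effectors from 0.00 (Eif2ak2) to 2.76 (Ifit3), none of them called.

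The GTPases stood higher in both sorted fractions. The fold between HRas TbrKO and HRas was at least 2 in both the integrin high and the integrin low fraction for 18 of 41 members, a description added after these values were seen, and for 2.62% of all genes tested. All 8 GTPases were among them, and 10 of 33 type I genes. The median fold of the GTPases was 4.04 in the high and 3.98 in the low fraction, that of the type I side 1.56 and 2.09, and that of all genes 0.989 and 0.972. For Gbp2 it was 8.80 and 6.98, and for Iigp1 9.00 and 5.34. Rsad2, an enzyme that makes a chain-terminating nucleotide, had folds of 3.31 and 10.4 and reached 43.1 CPM in the HRas TbrKO low library, beside 1.31 to 11.3 in the other tumour libraries.

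The count of members called depended on the libraries fitted. With only the 4 HRas and HRas TbrKO libraries fitted, 20 members were called, all higher, from 1 residual degree of freedom, where 5.94% of all genes were called. It was 21 without TbrKO high (6.75% of all genes) and 22 without TbrKO low (6.06%), and 0 without any 1 of the HRas or HRas TbrKO libraries. Leukocyte markers stood beside the members: their summed level was 591 (high) and 2091 (low) CPM in HRas, 1242 and 4660 in HRas TbrKO, and 440 and 1351 in TbrKO, with Ptprc at 16.9 and 73.2, 21.7 and 181, and 5.91 and 20.95 in the same order. Without S100a9 the sums were 449 and 1502 CPM in HRas, 683 and 2316 in HRas TbrKO, and 310 and 954 in TbrKO, the same order within each fraction. Fibroblast and endothelial markers summed to 2356 and 11616 CPM in HRas and 1009 and 9918 in HRas TbrKO. Ifng stood at 0 and 0.101 CPM in HRas and 0.107 and 0.643 in HRas TbrKO. The part of leukocytes in the member values was not tested.

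TbrKO tumours, set against the same HRas libraries, had 32 members higher and none lower, where 16.2% of all genes were higher and 16.9% lower. On the type I side 26 of 33 rose (median log2 fold change 1.43) and of the GTPases 6 of 8 (median 2.29), beside a median of -0.03 over all genes. Leukocyte markers did not stand higher here: of 14 tested, 3 were lower and none higher, and their summed level was below that of HRas in each fraction.

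Gbp2 rose from 5.32 and 12.2 CPM to 179 and 110 (log2 fold change 4.16, SE 0.50, adjusted p = 0.00592, edgeR), Igtp by 2.66 and Irgm2 by 2.50. Gbp3 (2.47), Irgm1 (1.75) and Iigp1 (1.70) also rose, and Gbp7 (0.90) and Gbp5 (2.11, adjusted p = 0.0627, edgeR) were not called. All 4 regulators rose: Irf1 from 79.4 and 94.2 CPM to 570 and 562 (2.70, adjusted p = 0.0026, edgeR), Irf9 by 1.73, Stat2 by 0.85 and Irf7 by 0.71. All 4 sensors rose as well, with Zbp1 at 2.28, Dhx58 at 2.06, Ifih1 at 1.61 and Ddx58 at 1.43.

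Of the 25 effectors 18 rose. Ifit3 went from 0.268 and 0.539 CPM to 7.16 and 6.41 (4.13), Xaf1, an apoptosis factor, from 2.24 and 3.30 to 27.8 and 17.6 (3.06), and Ifi44 rose by 2.81. The other 15 lay between 0.56 (Eif2ak2) and 2.80 (Rtp4). The 7 effectors not called ran from -1.14 (Oas3) to 1.42 (Mx1), and Oas2 was among them (0.08). So Oas2 and Oas3, which rose in both CL wound groups, were not called in TbrKO tumours.

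Immediate early genes rose in 10 of 12 cases, from a summed 4871 and 5452 CPM in HRas to 20115 and 13041 in TbrKO, and Irf1 moved with them. The part of this in the result was not tested. The count of 32 was 3 without the HRas high library, 12 without HRas low and 17 when the fraction was left out of the design, where 4.37%, 5.96% and 14.9% of all genes were called.

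**Figure D4:**
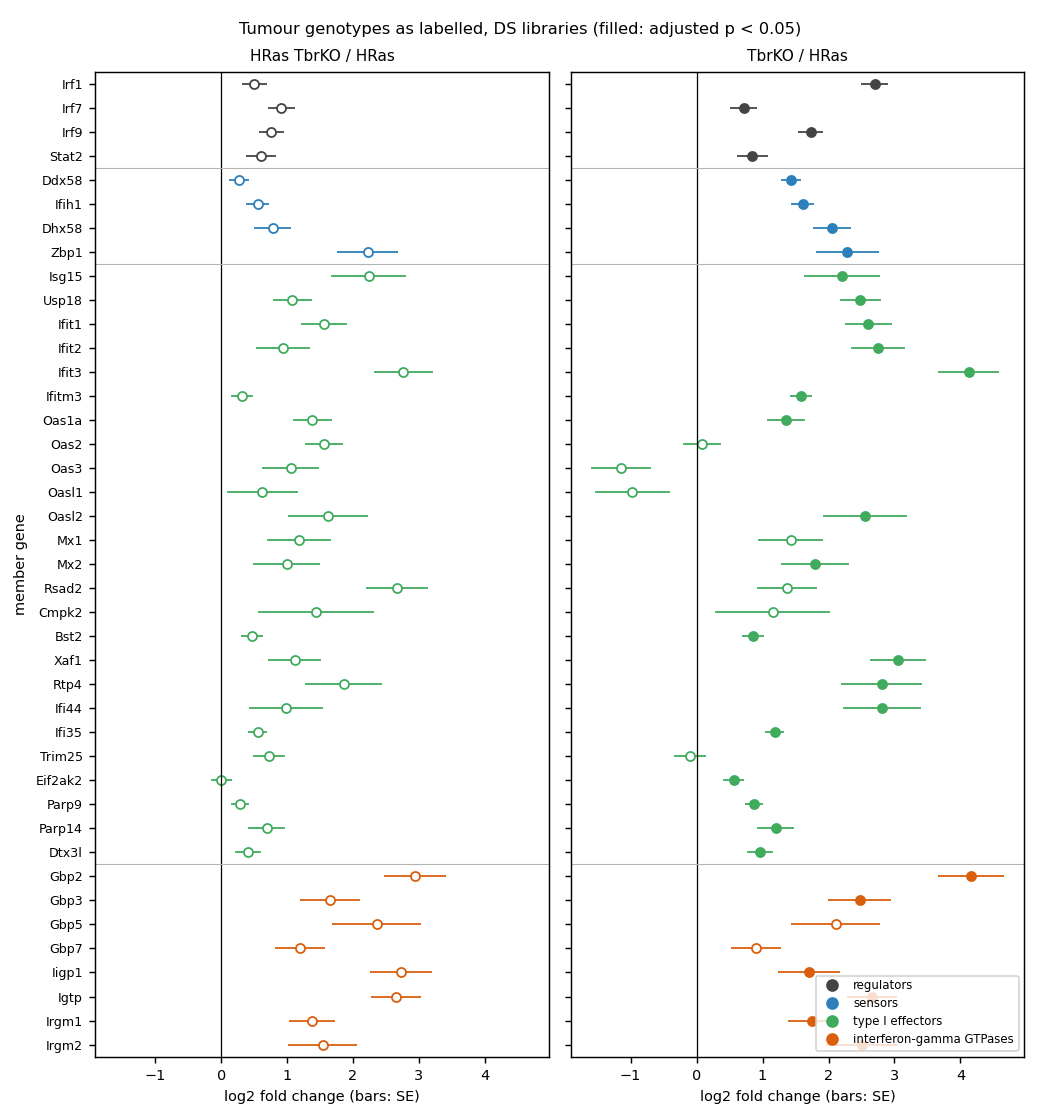
Log2 fold changes of the 41 members in HRas TbrKO (left) and TbrKO (right) against the same 2 HRas libraries, with standard errors as bars, and filled points for adjusted p below 0.05. No point is filled on the left, where 40 of 41 are positive and Gbp2 is at 2.94, and 32 are filled on the right.

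Between the sorted fractions of tumours the members leaned to the integrin low side, and 1 passed the test. Oas2 was lower in the high fraction (log2 difference -1.75, SE 0.24, adjusted p = 0.0362, edgeR, 3 of 3 genotypes), where 2.95% of all genes were lower, and 40 of 41 members were negative with a median of -0.45, beside 0.05 over all genes. Rsad2 (-2.27, adjusted p = 0.0509, edgeR) was the lowest uncalled effector and Ifitm3 (0.32) the highest. Uncalled regulators ran from -0.44 (Irf7) to -0.25 (Stat2), sensors from -0.64 (Zbp1) to -0.20 (Ddx58) and GTPases from -1.37 (Gbp5) to -0.11 (Irgm1). In the same comparison 8 of 13 leukocyte and 8 of 12 fibroblast and endothelial markers were lower in the high fraction, and their part was not tested. The call on Oas2 was lost without any 1 of the HRas or HRas TbrKO libraries, with 0 members called. There were 17 members, all lower, without TbrKO high and 18 without TbrKO low, where 22.3% and 20.3% of all genes were called.

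The deposited peaks of open chromatin were laid over the 31 promoters. A peak overlapped the promoter of 21 members in HFSC (67.7%), 17 in EpdSC (54.8%), 22 in wound cells (71.0%) and 19 in tumour cells (61.3%). Of all 27025 genes with a promoter in the table, 42.0%, 30.0%, 40.0% and 37.9% had one. That background was not limited to genes expressed in these cells. Each population was 1 pooled sample, with 55435, 25742, 56865 and 54201 peaks in that order, so a peak missing from 1 list does not show closed chromatin and populations were not tested against each other.

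A peak was present in all 4 populations at 14 of 31 member promoters (45.2%), beside 27.6% of all genes with a promoter. A peak in at least 1 list was found at 23 (74.2%), beside 45.9% of all genes, and 8 members had none in any. The 4 regulators were in the first set: the fold enrichment given by the authors' peak caller was 4.20 to 6.32 at Irf1, 4.39 to 7.46 at Irf7, 8.13 to 14.0 at Irf9 and 10.2 to 14.5 at Stat2. No peak overlapped the promoters of Isg15, Ifit3, Oas1a, Oas3, Oasl1, Rsad2, Ifi44 or Gbp5 in any list. Of these, Oas1a, Oas3, Isg15 and Ifi44 rose in both CL wound groups. Gbp2, whose core is printed above, had a peak in EpdSC (5.53), wound (4.16) and tumour cells (5.57) and none in the HFSC list, and Oasl2 had one in wound cells alone (4.61), which was not tested.

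**Figure D5:**
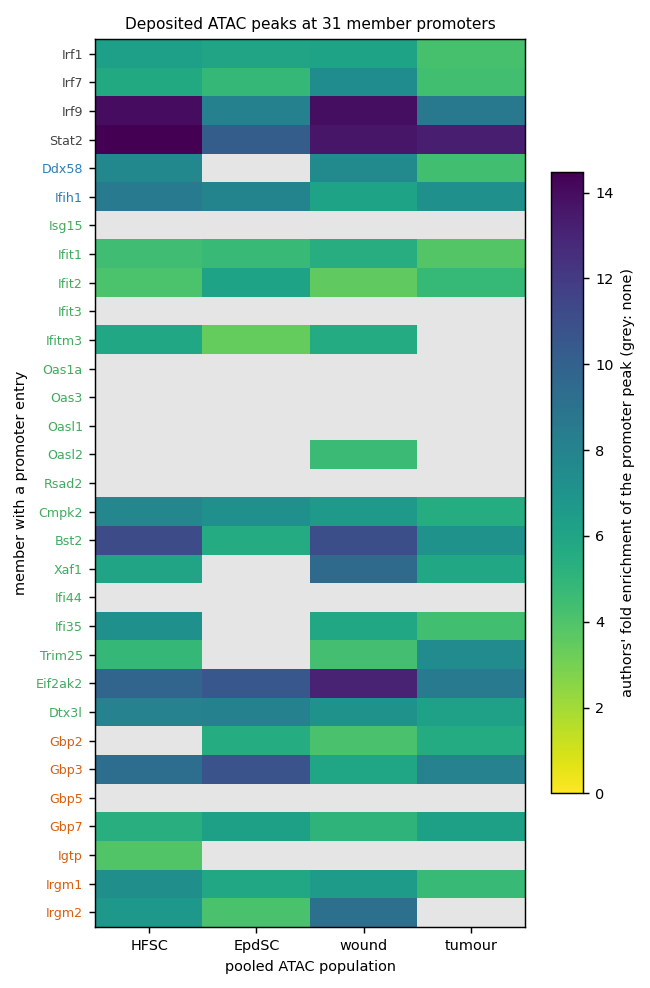
Authors' fold enrichment (colour) of the highest deposited peak over each of 31 member promoters in 4 pooled ATAC samples, with grey where no peak overlaps. Irf9 and Stat2 carry the highest values (up to 14.5 in HFSC) and 8 rows are grey throughout.

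Upstream of the members, interferon genes themselves were barely counted. Of 15 in the table, Ifng and Ifnk, the keratinocyte interferon kappa, passed the filter in CL and Ifnb1 in tumours. Ifnb1, the gene of interferon beta, stood at 0.0669 and 0.0337 CPM in HRas, 0.143 and 0.8998 in HRas TbrKO, and 0.812 and 3.56 in TbrKO. It rose in TbrKO (adjusted p = 0.0125, edgeR) and was not called in HRas TbrKO, and HRas had 3 reads of it in all, too few for a fold. In wounded EpdSC Ifng rose. Neither Ifnb1 nor Ifng had a read in the unwounded CL libraries or those of the wounded HFSC lineage.

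Of 15 receptor and JAK-STAT genes, 3 rose and 5 fell in the wounded HFSC lineage, with Jak1 (1.08) and Ifnar2 (0.72) among those up, and the feedback inhibitors Socs3 (-4.02) and Socs1 (-2.67), the lambda receptor Ifnlr1 (-1.70) and Ptpn6 (-0.89) among those down. In wounded EpdSC 5 rose, among them Il10rb (1.93), Ifnar2 (1.52) and Ptpn6 (1.27), and 4 fell: Socs3 (-3.30), Ifnlr1 (-1.99), the interferon-gamma receptor Ifngr1 (-1.53) and Pias1 (-0.78). In TbrKO tumours Ifnlr1 (2.25) and Ifngr1 rose and Il10rb fell (-0.89). Beside this list and those below, 21.4% of all genes rose and 24.7% fell in the wounded HFSC lineage. The shares were 30.2% and 28.2% in wounded EpdSC, and 16.2% and 16.9% in TbrKO tumours. Ifnar1 ran from 34.9 to 79.1 CPM over all 21 libraries. Ifngr1 was lower in HFSC than EpdSC in CL (-1.46) and in BK (-2.81).

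Among 23 genes of nucleic acid sensing, 6 rose and 3 fell in the wounded HFSC lineage, led by Ifi204 (0 and 0.115 CPM in HFSC, 3.64 and 3.71 in the wounded lineage) and Tmem173 (3.38), the adaptor STING, and by Tlr3 (-2.01). In wounded EpdSC 7 rose and 5 fell, led by Tlr9 (listed at 0 in EpdSC, 7.37 and 7.71 CPM when wounded), a receptor known from plasmacytoid dendritic and B cells, and Irf8 (6.70), a leukocyte factor, and by Tlr3 (-3.20). In TbrKO tumours 3 rose and 3 fell, with Samhd1 (1.86) and Irf8 (-2.62) at the ends.

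Further GTPases of the same families were listed apart from the members. Of 9 tested in tumours, 5 rose in TbrKO (Tgtp1 4.38, Tgtp2 4.01, Ifi47 3.45, Gbp6 2.69, Gm12250 2.22), and all 9 were positive in HRas TbrKO with a median of 2.38 and none called. In the wounded HFSC lineage 2 of 5 tested fell (Ifi47 -2.71, Gbp6 -2.46), and in wounded EpdSC 3 rose (Gbp4 2.58, Ifi47 2.03, and Gbp9 from 0.0419 and 0.0643 to 1.69 and 3.05 CPM) and Gbp6 fell (-2.22). Tgtp1 and Tgtp2 are near-identical copies whose reads may be split.

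Other interferon-gamma targets, chiefly of antigen processing, were counted next. Of 18 tested in CL, 7 fell in the wounded HFSC lineage, led by Cxcl10 (-2.41), Ciita (-2.02), Psmb9 (-1.79) and the peptide transporter Tap1 (-1.76), and Casp1 (1.98) and Psme2 (0.80) rose. In wounded EpdSC 6 rose, led by Ciita (4.82), the switch of class II genes, and Casp1 (2.36), and 4 fell, led by Cxcl10 (-1.65) and Casp4 (-1.23). In TbrKO tumours 13 of 20 rose, led by Cxcl10 (3.59), Cxcl9 (3.58), B2m (2.87) and Psmb8 (2.64), and Wars fell (-0.81). B2m, the light chain of class I, stood at 286 and 537 CPM in HRas, 546 and 798 in HRas TbrKO, and 2981 and 2794 in TbrKO.

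Of 42 further type I targets tested in CL, 8 rose and 6 fell in the wounded HFSC lineage and 19 rose and 7 fell in wounded EpdSC. In the first, Trim30d (0.173 and 0.417 CPM) and Slfn1 (0.208 and 0.114 CPM) were called higher at levels of a few reads, both at 0 in HFSC, while Slfn2 rose to 7.07 and 8.53 CPM and Samd9l by 4.77 on the log2 scale. In wounded EpdSC Slfn1 (4.63 and 7.93 CPM) and Ifi205 (1.24 and 1.74) rose from 0, Slfn2 from 0.126 and 0 to 46.3 and 43.4 CPM, and Ifitm1 by 8.54 on the log2 scale. In TbrKO tumours 15 of 43 rose, led by Phf11d (3.72) and Ddx60 (3.09), and 7 fell, among them Slfn1 (-2.95) and Ifitm1 (-2.22).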

How the data were processed

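RNA was counted in 21 libraries and peaks of open chromatin were listed for 4 pooled samples. The authors deposited whole-number read counts per gene, not normalised, and the submitters' processing notes name build mm10 and the tools STAR, Picard, Bowtie and MACS2 2.1.1.20160309. The gene counter and its strand setting are not given in the sources used here. A line of totals was left out, 0 columns were unmatched and 14 symbols had been turned into dates. Ensembl count tables deposited for the 8 CL libraries (98.9% of 47729 IDs named) served as an alternative. Peaks were called by the authors with MACS2 without a control at a q-value of 0.05, per the file headers, and the deposited lists give each peak a pileup signal, a fold enrichment (ratio) and -log10 p- and q-values.

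Tests of counts used edgeR 4.0.16 under R 4.3.3 (TMM scaling, filterByExpr, quasi-likelihood F test, Benjamini-Hochberg adjustment over all genes, threshold 0.05). Every adjusted p and every call in the text is from edgeR unless DESeq2 1.42.0 is named. Each SE was obtained by dividing the size of the log2 value by the root of F. CL and BK were fitted with 1 mean per group and the 6 tumour libraries with genotype and sorted fraction. Both tumour genotype comparisons share the HRas libraries. All 41 members passed the filter in all 10 comparisons. Members and gene lists were chosen with earlier results of these data known. Named genes are Irf7, Oas2, Gbp2 and Iigp1 in every library, every called member up to 12 per comparison and otherwise the 3 of each class with the largest change, the uncalled extremes of each class, and up to 4 called genes per other list and direction. Further called members and values outside this rule were chosen after they were seen. One gene that the rule would name is not reported here. Alternatives were RLE and upper quartile scaling, other filters (mean CPM of at least 1), DESeq2, each library left out, replicate blocks and fewer libraries. One count was worth 0.0286 to 0.0643 CPM, which limits low genes.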

Additional observations from a re-analysis of the deposited data

Results flagged for a closer look

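The wound response of the HFSC lineage differed from that of EpdSC, by a test of the difference itself (edgeR, lineage minus EpdSC, log2), for 4 of 41 members, where 15.8% of all genes differed. The difference was -2.16 for Irf7, -7.13 for Ifit2, -5.80 for Gbp5 and 1.43 for Parp9. These are the results of the comparison given above, and the leukocyte markers that differ between the wounded groups stand beside it. No group had 4 or more libraries, so no library could be tested as an outlier within its group.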

How the results depend on the processing

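Counts of members called moved by over 1.5 times under these settings. The share of all genes called in the same fit is given in brackets. With DESeq2 they were 7 for the difference of wound responses (27.3%) and 18 for the wounded HFSC lineage against wounded EpdSC (37.3%). HFSC against EpdSC gave 5 in CL (14.3%) and 16 in BK (19.8%) with DESeq2. HRas TbrKO gave 14 (2.67%) and integrin high against low 3 (11.2%), also with DESeq2. Without a filter beyond 1 count they were 7 for the difference (16%), 16 for BK HFSC (14.1%) and 2 for the fractions (4%). For the lone BK wounded EpdSC library, DESeq2 called more members and a larger share of all genes than the main fit. So did the fits without a filter beyond 1 count and with a mean CPM of at least 1. With only the 4 libraries compared, the wounded groups gave 7 (7.64%) and HRas TbrKO 20 (5.94%). With RLE scaling the fractions gave 0 (1.64%), and without the genotype or fraction block they gave 0 (0%) and TbrKO 17 (14.9%). Of peaks with a fold enrichment of at least 5, 12 tumour promoters remained (38.71% of matched members, beside 31.15% of all genes with a promoter). Upper quartile scaling shifted the median of all genes from -0.04 to 0.13 in wounded EpdSC.

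Leaving out each library in turn gave 6 to 20 members in the wounded HFSC lineage, 18 to 26 in wounded EpdSC, 0 to 11 for the difference, 1 to 18 between the wounded groups, 1 to 6 and 2 to 20 for HFSC against EpdSC in CL and BK, 1 to 15 for BK wounded EpdSC, 0 to 22 for HRas TbrKO, 3 to 38 for TbrKO and 0 to 18 for the fractions. Omitting the lone BK wounded library left no such comparison. Wherever an end of these ranges differed from the main count, the share of all genes called differed in the same direction. The ranges therefore do not describe the members alone. Values of uncalled genes changed sign as follows, with the range over libraries left out. Irf7 in the wounded HFSC lineage ran from -0.0634 to 0.62, and for HFSC against EpdSC in CL from -0.19 to 0.50. Gbp2 ran from -0.39 (-0.22 without EpdSC B, -0.13 without wounded EpdSC A) to 1.15 for the difference, and was -0.10 with upper quartile scaling. It ran from -0.45 to 0.12 between wounded groups, from -1.35 to 0.19 (0.02 without EpdSC B) for HFSC against EpdSC in CL, and from -0.0193 to 1.14 in BK wounded EpdSC. Iigp1 ran from -0.0908 to 1.60 between wounded groups and from -0.78 to 0.14 (0.13 without HRas low) for the fractions. Oas2 in TbrKO ran from -0.17 to 0.44 and was -0.0242 without the block, and Gbp2 between fractions was 0.16 without the block. The cause of these changes was not tested. A tally was made, in each comparison, over the members called in the main fit together with Irf7, Oas2, Gbp2 and Iigp1. Under settings other than leaving out 1 library, 857 values kept their direction and side of the threshold, 60 lost the call and 22 gained it. With 1 library left out these were 640, 221 and 23.

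The replicate letter or number was also fitted as a block, and brackets give the share of all genes called. Members called were 16 in the wounded HFSC lineage (43.5%), 24 in wounded EpdSC (57.2%) and 4 for the difference (13.3%). They were 9 between wounded groups (14%), and 2 (9.91%) and 12 (18%) for HFSC against EpdSC in CL and BK. Deviations of libraries with the same letter correlated at 0.519 between the 2 wounded groups, at -0.219 to 0.0643 for the other CL pairs of groups and at -0.243 in BK. Whether the wounded libraries of 1 letter share wounds is not in the labels, and 2 pairs are too few to show it. The crossed pairing in BK, chosen after seeing the data, gave 16 members (26.3% of all genes).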
